A study of Mus musculus with 24 samples.

Results

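Liver of alb-SREBP-1a∆P mice was compared with liver of C57Bl6 mice, 8 arrays against 8, which are 16 of the 24 arrays of the series. Members were chosen by the genotype in the sample titles, and no measured value entered that choice. Both groups were male litter mates on the C57Bl6 background, killed at 24 weeks of age in the morning, fed standard chow without restriction, and each array was hybridised with RNA of 1 liver. alb-SREBP-1a∆P mice carry an HA-tagged N-terminal, transcriptionally active domain of human SREBP-1a in which the MAPK phosphorylation sites are mutated. The transgene is driven by the albumin promoter, so that hepatocytes are the cells meant to express it. C57Bl6 mice carry no transgene. The 8 alb-SREBP-1a mice, whose transgene keeps these sites, belong to neither group and served to set a signal level for each probe set that is independent of the comparison.

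SREBP-1a is a transcription factor made as a precursor that sits in membranes of the endoplasmic reticulum. The escort protein SCAP carries it to the Golgi when sterols are low, INSIG proteins retain it when sterols are high, and site-specific proteases release the N-terminal domain, which enters the nucleus. There it binds sterol response elements and E-boxes in promoters of genes of cholesterol and fatty acid synthesis. A transgene that encodes the N-terminal domain alone bypasses this control. MAP kinases phosphorylate this domain, and the alb-SREBP-1a∆P protein cannot be phosphorylated at those sites. Liver is the main site of bile acid synthesis, gluconeogenesis, urea synthesis and plasma protein secretion, and most of its RNA comes from hepatocytes.

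Affymetrix Mouse Gene 1.0 ST arrays gave log2 RMA values for 35556 probe sets without a missing value. Array medians lay between 5.55 and 5.65 in C57Bl6 and between 5.69 and 5.81 in alb-SREBP-1a∆P. Of the probe sets, 21789 carry 1 gene symbol, and a gene is described by its brightest probe set (19938 genes). A change is the log2 difference of group means, alb-SREBP-1a∆P minus C57Bl6, ± standard error of the limma fit, and rose or fell means an adjusted p under 0.05 over all probe sets. All 14 hepatocyte markers were measured, and the log2 of their summed signal was 17.05 to 17.20 in C57Bl6 and 16.84 to 17.01 in alb-SREBP-1a∆P. These ranges did not overlap, although 7 of the 14 markers fell and 7 did not pass. In the brightest decile of probe sets, where these markers have their median level, 56.4% of protein-coding genes fell. After cyclic loess, which evens out differences between arrays that follow the signal level, 2 of the 14 fell. In whole tissue, fewer cells of a type and less RNA per cell cannot be told apart.

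The comparison moved a large part of the array in both directions. Across all probe sets 27.0% rose and 20.2% fell, and across genes 25.2% rose (5019) and 25.9% fell (5172). In 1897 probe sets (5.34%) all 8 alb-SREBP-1a∆P arrays lay above every C57Bl6 array, and in 2299 (6.47%) all 8 lay below. Among genes these shares were 3.48% above and 8.92% below, and statements on overlap of single genes stand beside them. Most single genes were named for a small p or for a large change without overlap. Their lack of overlap thus follows in large part from that choice and only describes them. After cyclic loess 5763 probe sets rose (16.2%) and 5594 fell (15.7%), which among genes were 13.5% and 18.5%. Of the calls made on the deposited values 52.3% were made again, in the same direction, after cyclic loess and 55.7% after quantile normalization.

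The direction of change followed the signal level. Probe sets were divided into 10 deciles by their mean in the alb-SREBP-1a arrays, which are in neither group compared. The median change was 0.38 in the dimmest decile, 0.33 and 0.28 in the next, 0.18 in the fifth, -0.06 in the seventh, -0.30 in the ninth and -0.19 in the brightest. In the dimmest decile 1562 of 3556 probe sets rose and 24 fell, whereas in the brightest 450 rose and 1661 fell. The sign of the median turned between the sixth decile (0.10) and the seventh. The trend was not steady to the end, since the brightest decile fell less than the ninth. After cyclic loess the medians of all deciles lay between -0.07 and 0.04.

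**Figure D1:**
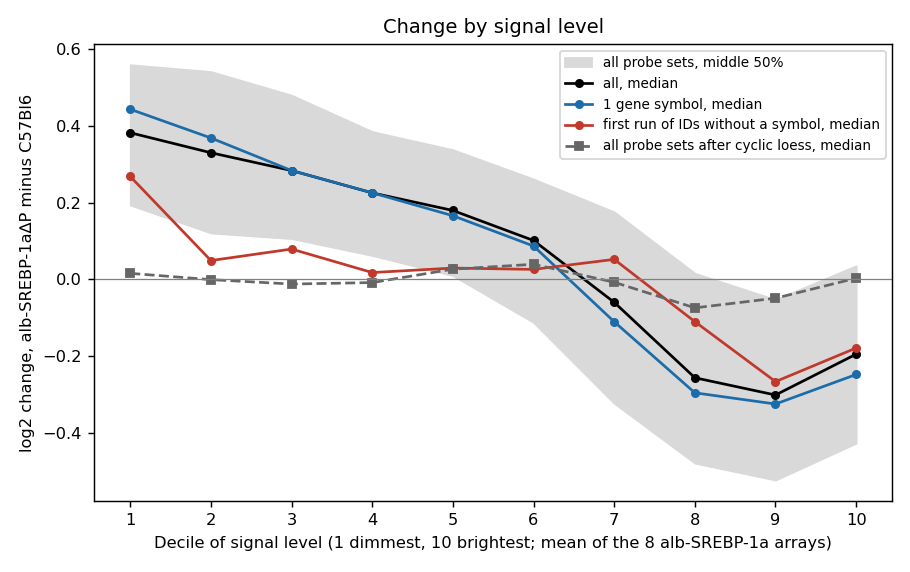
Median log2 change, alb-SREBP-1a∆P minus C57Bl6 (y axis, log2 units), in deciles of signal level (x axis, 1 dimmest to 10 brightest by the mean of the 8 alb-SREBP-1a arrays). The black line is all probe sets with the grey band from the lower to the upper quartile, blue the probe sets with 1 gene symbol, red the first run of IDs without a symbol, and the dashed line all probe sets after cyclic loess. The black line goes from 0.38 in the dimmest decile to -0.30 in the ninth, and the dashed line stays between -0.07 and 0.04.

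The same pattern was present on each array. When the values of an array were regressed on the reference level, the slope was 0.988 to 1.021 (median 1.002) in C57Bl6 and 0.891 to 0.935 (median 0.905) in alb-SREBP-1a∆P. No array of one genotype entered the range of the other, and the difference of means was -0.0927 (exact permutation over 12870 splits, two-sided p = 0.000155, the smallest that 8 against 8 arrays allow). The alb-SREBP-1a arrays, which average 1 by construction, ran from 0.976 to 1.022. They therefore lay within or close to the C57Bl6 range.
Dim probe sets were brighter and bright ones dimmer on the alb-SREBP-1a∆P arrays. In the dimmest decile the mean of an array was 2.47 to 2.67 in C57Bl6 and 2.76 to 3.24 in alb-SREBP-1a∆P, a difference of 0.381. In the brightest decile it was 10.17 to 10.28 in C57Bl6 and 10.04 to 10.15 in alb-SREBP-1a∆P, a difference of -0.133. The groups did not overlap in either measure (exact permutation p = 0.000155 each, adjusted p = 0.000155 over the 4 array measures). The standard deviation of all values on an array, the fourth measure, was 2.18 to 2.25 against 2.02 to 2.09. In the dimmest decile alb-SREBP-1a∆P replicate 1 was the highest array, at 3.24, and the next was at 3.002. Which part of the pattern arose in the liver, in the RNA or on the array was not tested, and the sources used here give no hybridisation or scan batch.

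**Figure D2:**
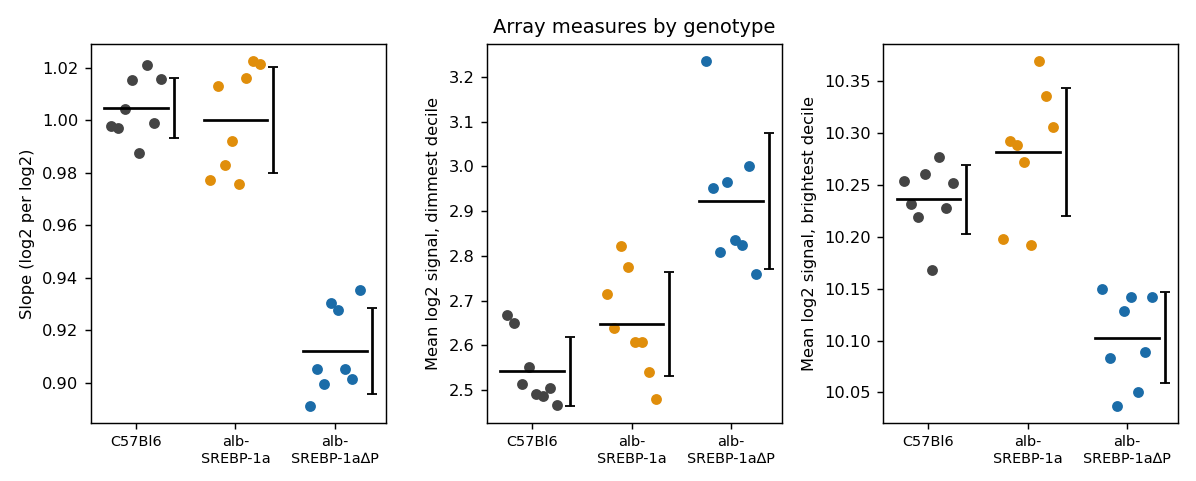
Slope of each array on the reference level (left), mean log2 signal of the dimmest decile (middle) and of the brightest decile (right) for 24 arrays by genotype, with 1 point per array, the mean as a line and the SD over 8 arrays as the whisker beside it. The axes do not start at 0. The alb-SREBP-1a∆P slopes lie between 0.891 and 0.935, below all C57Bl6 slopes (0.988 to 1.021).

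Kinds of probe sets differed at the same level. Among probe sets with 1 symbol the median change went from 0.44 in the dimmest decile to -0.32 in the ninth, and in the dimmest decile 747 of 1077 rose and none fell. A run of 6617 consecutive IDs at the start of the table has no symbol, and what these probe sets read is unknown here. Their medians were 0.27 in the dimmest decile, 0.02 in the fourth and -0.27 in the ninth, and 13.8% rose and 12.4% fell. They also varied more between mice, with a median SD in the second decile of 0.56 in C57Bl6 and 0.72 in alb-SREBP-1a∆P, against 0.20 and 0.30 for probe sets with 1 symbol. The remaining 5529 probe sets without a symbol rose in 43.6% and fell in 7.54%.
By RNA class, protein-coding genes in the seventh and eighth deciles had medians of -0.12 and -0.30, while long noncoding RNA genes in the same deciles had medians of 0.17 (62 genes) and 0.13 (32 genes). MicroRNA genes in the seventh decile had a median of 0.27, with 13 of 25 that rose and none that fell. In the first and second deciles protein-coding genes had the higher medians, 0.46 and 0.38. Those of long noncoding RNA genes were 0.36 and 0.33 there, and those of microRNA genes 0.38 and 0.25. Among protein-coding genes of the brightest 4 deciles, the genomic span of the gene went with the change. The median was -0.13 in the quintile with the shortest span (median 4477 bp), -0.31 in the middle quintile (23646 bp), -0.34 in the next (44045 bp) and -0.28 in the quintile with the longest (113126 bp). Short genes of these deciles fell in 676 of 1799 cases and those of the fourth quintile in 1116 of 1799.

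Genes known mainly from sensory and skin tissues made up the clearest block of rises. The paper cites reports of several olfactory receptors outside the nose, some of them with a role in liver lipid metabolism. Olfactory receptors are G protein-coupled receptors of the nose, and of 1027 measured 842 rose and 1 fell, with a median change of 0.56 beside 0.06 over all genes. Of 119 vomeronasal type 1 receptors, which read pheromones, 98 rose and none fell (median 0.56), as did 35 of 46 of type 2, 37 of 50 taste and trace amine receptors and 62 of 76 keratin-associated and cornified envelope genes. The median reference level of the olfactory receptors, 3.76, lies in the second decile, where 976 of 1654 probe sets with 1 symbol rose and 5 fell. Both vomeronasal lists have their median level in the dimmest decile, where 72.7% of protein-coding genes rose. Of type 1 82.4% and of type 2 76.1% rose, so the type 2 share is near that of its level. For taste and trace amine receptors, in decile 2, the protein-coding share was 62.1%. For keratin-associated and cornified envelope genes, in decile 3, it was 46.8%. Receptor genes of 1 family are alike in sequence, so their probe sets may read each other. After cyclic loess 352 olfactory receptors rose and 3 fell (median 0.26), and 29 vomeronasal type 1 receptors, 9 of type 2, 8 taste and trace amine receptors and 30 keratin-associated and cornified envelope genes rose and none fell.
Olfr348, in the dimmest decile, ranged from 2.43 to 3.13 (median 2.72) in C57Bl6 and from 3.68 to 4.54 (median 4.30) in alb-SREBP-1a∆P. All 8 arrays lay above every C57Bl6 array, and the change was 1.53 ± 0.13 (limma, adjusted p = 1.81e-07). Olfr1410, which is brighter, stood at 5.38 to 5.65 (median 5.47) in C57Bl6 and at 6.05 to 6.66 (median 6.32) in alb-SREBP-1a∆P, again without overlap (change 0.85 ± 0.08). Olfr641, between them in level, rose by 1.06 ± 0.10.
The pheromone receptor Vmn1r180 was at 2.23 to 2.65 (median 2.51) in C57Bl6 and 3.45 to 4.19 (median 3.84) in alb-SREBP-1a∆P and rose by 1.34 ± 0.11. The type 2 receptor gene Vmn2r83 rose by 0.94 ± 0.12. Neither gene overlapped between the groups. Krtap5-3, a hair keratin-associated protein gene of the eighth decile, rose by 1.24 ± 0.18, with arrays at 6.49 to 7.23 (median 6.91) in C57Bl6 and 7.49 to 9.25 (median 8.06) in alb-SREBP-1a∆P, so that rises of this kind were not limited to the dimmest probe sets. One antimicrobial peptide gene went the other way. Of 40 beta-defensin genes 24 rose and 1 fell (6 and 3 after cyclic loess), and Defb1 fell by 0.77 ± 0.12, with all 8 arrays below every C57Bl6 array (5.09 to 5.95 (median 5.65) in C57Bl6, 4.56 to 4.92 (median 4.76) in alb-SREBP-1a∆P).
Zfp600, a zinc finger protein gene of the dimmest decile, had the largest change of any gene in that decile. Its signal was 1.49 to 2.08 (median 1.80) in C57Bl6 and 2.97 to 5.13 (median 4.43) in alb-SREBP-1a∆P, without overlap, and it rose by 2.45 ± 0.23 (2.09 after cyclic loess).

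Most lists of liver metabolism and of RNA handling had medians below 0. They are to be read against their signal level, since of all protein-coding genes 56.1% fell in the eighth decile, 60.4% in the ninth and 56.4% in the brightest, so that a list of bright genes with a share near these does not stand out. The counts after cyclic loess are therefore given beside those from the deposited values. Among the lists in the plot of list medians, the lowest median was that of branched-chain amino acid degradation (-0.58) and the highest those of the olfactory and vomeronasal type 1 receptors (0.56). Cyclic loess brought oxidative phosphorylation, ribosomal proteins and fatty acid synthesis to medians between -0.01 and 0.02. It left branched-chain amino acid degradation at -0.34 and ribosome biogenesis at -0.32, and it raised the Kupffer cell list from 0.29 to 0.42.

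**Figure D3:**
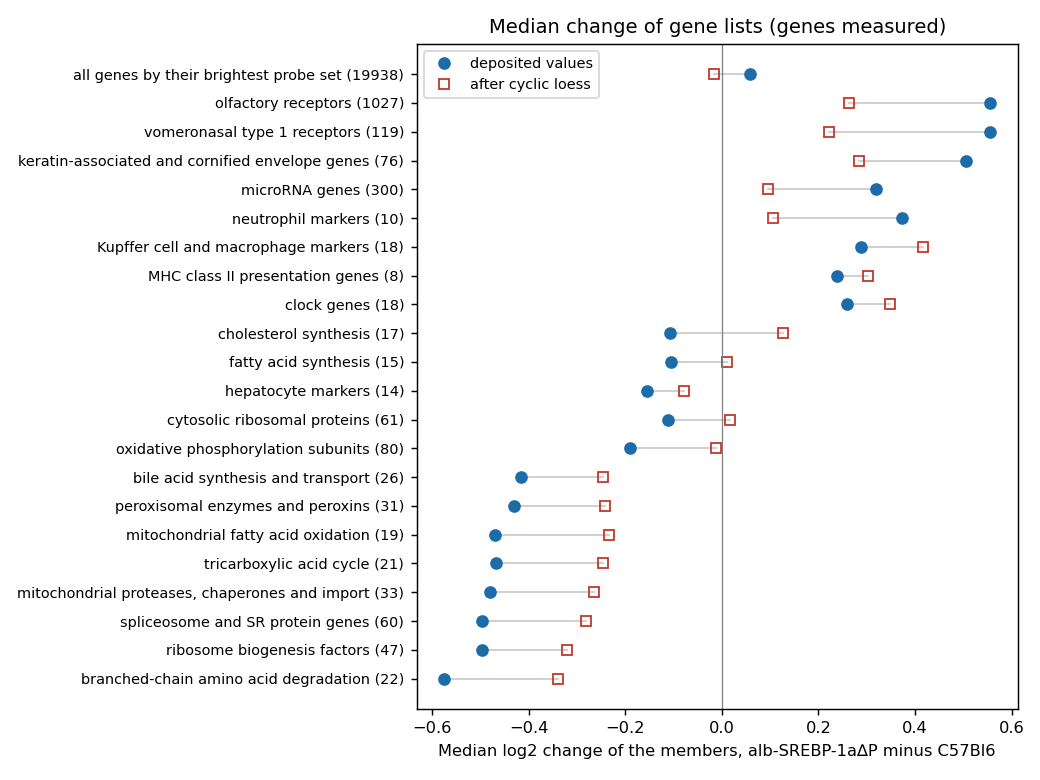
Median log2 change of the measured members of 21 gene lists and of all genes (x axis, log2 units), from the deposited values (filled circles) and after cyclic loess (open squares), with the number of genes measured in parentheses. Branched-chain amino acid degradation lies at -0.58 and -0.34, and olfactory receptors at 0.56 and 0.26.

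Genes of the SREBP system and its targets had small median changes. In cholesterol synthesis 5 of 17 genes fell and 1 rose, and in fatty acid synthesis 6 of 15 fell and none rose. Both lists had a median change of -0.11, and their remaining genes missed the threshold. In the brightest decile, where both have their median level, 56.4% of protein-coding genes fell. The shares in cholesterol and fatty acid synthesis, 29.4% and 40.0%, were lower. After cyclic loess 5 cholesterol synthesis genes rose and 1 fell, with a median of 0.13, so the sign of that median depends on the scaling. In fatty acid synthesis 2 rose and 2 fell after cyclic loess, so that falls no longer outnumbered rises. Of 8 genes of the factor, its escort, its anchors and its proteases, 1 rose and 3 fell, and after cyclic loess 3 rose and 2 fell.
The sterol response element core was searched as CACCCCA and the E-box as CACGTG, on either strand, in RefSeq promoter windows of mouse build GRCm38.p6 that run from 250 bases before to 50 after the start site. The core is in 1 of 17 windows of 14 cholesterol synthesis genes and in 7.62% of all 32851 windows. The E-box is in 3 of those 17 windows and in 3 of 15 of fatty acid synthesis genes, beside 7.15% of all windows. A match is a description of the letters and not a shown binding site. Windows with the core before the start site are printed here for 3 genes of the SREBP system or lipid synthesis, of which Lpin1 passed the test and Hmgcs1 and Srebf2 did not, with the core, or its reverse complement in Lpin1, in capitals, 5′ to 3′ on the strand of the gene. They lie at chr13:119690193-119690243 (plus strand), chr15:82147086-82147136 (plus strand) and chr12:16610973-16611023 (minus strand).
Hmgcs1: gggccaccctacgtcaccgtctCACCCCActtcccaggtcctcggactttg
Srebf2: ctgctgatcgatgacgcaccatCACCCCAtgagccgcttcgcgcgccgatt
Lpin1: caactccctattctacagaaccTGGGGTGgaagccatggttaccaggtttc
Hmgcs1, the synthase of the mevalonate pathway, was chosen for its motif. It stood at 10.58 to 11.02 (median 10.85) in C57Bl6 and 10.44 to 11.15 (median 10.78) in alb-SREBP-1a∆P, which overlap, and its change was -0.06 ± 0.11 (limma, adjusted p = 0.683). Srebf2, which encodes SREBP-2, was at -0.02 ± 0.09 (adjusted p = 0.866) and passed the test with the opposite sign after cyclic loess, at 0.24. Lpin1, a phosphatidate phosphatase, rose by 1.01 ± 0.28, with arrays at 7.67 to 8.51 (median 8.34) in C57Bl6 and 8.16 to 10.43 (median 9.196) in alb-SREBP-1a∆P, and 6 of 8 arrays lay above every C57Bl6 array.
The INSIG genes, which encode the sterol-dependent anchors, went in opposite directions. Insig2 ranged from 11.21 to 11.86 (median 11.61) in C57Bl6 and from 9.97 to 10.69 (median 10.47) in alb-SREBP-1a∆P, with no overlap, and fell by 1.17 ± 0.11 (limma, adjusted p = 1.05e-06). Insig1 stood at 11.07 to 11.57 (median 11.42) and 11.46 to 12.11 (median 11.72), with 7 of 8 arrays above every C57Bl6 array, and rose by 0.34 ± 0.09, but did not pass when arrays were centred on their medians (0.18). The mouse Srebf1 probe set fell by 0.45 ± 0.11 and did not pass after cyclic loess (-0.19) or quantile normalization (-0.27). Whether it also reads the human transgene was not tested. Scap was at 0.13 ± 0.08 (adjusted p = 0.189) and passed after cyclic loess, at 0.38.
In the mevalonate pathway Pmvk, phosphomevalonate kinase, was at 8.17 to 8.80 (median 8.53) in C57Bl6 and 7.13 to 7.75 (median 7.45) in alb-SREBP-1a∆P. It fell by 1.05 ± 0.11, and all 8 arrays lay below every C57Bl6 array. Nsdhl, a sterol dehydrogenase, was the 1 cholesterol synthesis gene that rose, by 0.27 ± 0.07, with arrays at 9.98 to 10.38 (median 10.30) in C57Bl6 and 10.45 to 10.65 (median 10.51) in alb-SREBP-1a∆P, without overlap; with arrays centred on their medians it did not pass (0.11). Acly, which supplies acetyl-CoA for fatty acid synthesis, fell by 0.56 ± 0.13. Elovl3, an elongase of saturated fatty acids, fell by 1.096 ± 0.09 and its arrays did not overlap.

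Genes of fatty acid breakdown fell in mitochondria and peroxisomes alike. Of 19 mitochondrial oxidation genes 17 fell and none rose (median -0.47, and 11 fell after cyclic loess), and of 31 peroxisomal enzymes and peroxins 25 fell and none rose (median -0.43, 15 fell and 1 rose after cyclic loess). Acadvl, the very-long-chain acyl-CoA dehydrogenase, stood at 9.32 to 9.86 (median 9.42) in C57Bl6 and 8.53 to 8.94 (median 8.63) in alb-SREBP-1a∆P. It fell by 0.81 ± 0.09, and the flavoprotein subunit gene Etfb, which takes up its electrons, by 0.69 ± 0.06. No array of either gene overlapped with C57Bl6.
Hacl1, which cleaves 2-hydroxyacyl-CoA in peroxisomal alpha-oxidation, was at 11.52 to 11.83 (median 11.61) in C57Bl6 and 10.25 to 10.81 (median 10.48) in alb-SREBP-1a∆P and fell by 1.16 ± 0.08 (limma, adjusted p = 2.38e-08). The bifunctional enzyme gene Ehhadh fell by 0.91 ± 0.09 and the import receptor gene Pex7 by 1.09 ± 0.12, each with 8 of 8 arrays below every C57Bl6 array. Pdk4, a kinase that shuts off pyruvate dehydrogenase and a target of PPARα, was at 7.32 to 8.25 (median 7.87) in C57Bl6 and 5.64 to 6.81 (median 6.46) in alb-SREBP-1a∆P and fell by 1.46 ± 0.16.
Of 26 bile acid genes 17 fell and 1 rose (median -0.42, 12 fell and 2 rose after cyclic loess). Cyp7a1, the rate-limiting enzyme of bile acid synthesis, was at 10.92 to 11.35 (median 11.14) in C57Bl6 and 9.57 to 10.68 (median 10.16) in alb-SREBP-1a∆P, without overlap, and fell by 1.06 ± 0.15. Baat, which conjugates bile acids to taurine and glycine, fell by 0.74 ± 0.08 and Abcb11, the export pump of the canaliculus, by 0.78 ± 0.10. Of 14 apolipoprotein and VLDL assembly genes 9 fell and 2 rose, and after cyclic loess 3 fell and 3 rose. Among them were Apoa5 (-0.68 ± 0.07) and the lipid transfer protein gene Mttp (-0.53 ± 0.07), which fell. The bile acid and apolipoprotein lists have their median level in the brightest decile, where 56.4% of protein-coding genes fell. Of their members 65.4% and 64.3% fell.

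Glycogen genes held some of the largest falls above the median level. Protein phosphatase 1 is brought to glycogen by targeting subunits and there activates glycogen synthase. Its subunit gene Ppp1r3c ranged from 9.24 to 9.72 (median 9.44) in C57Bl6 and from 6.56 to 7.95 (median 7.53) in alb-SREBP-1a∆P, and Ppp1r3b from 8.78 to 9.10 (median 8.91) and from 6.90 to 7.74 (median 7.55). Neither overlapped, and they fell by 1.99 ± 0.16 and 1.48 ± 0.11. Nhlrc1, which encodes malin, a ubiquitin ligase that acts on glycogen-bound proteins, rose by 0.41 ± 0.07, with arrays at 7.996 to 8.29 (median 8.12) in C57Bl6 and 8.39 to 8.65 (median 8.51) in alb-SREBP-1a∆P, with 8 of 8 arrays above. Across 16 glycogen genes 8 fell and 2 rose (6 and 4 after cyclic loess), and across 22 genes of gluconeogenesis and glycolysis 13 fell and 2 rose (12 and 3). At the median levels of these lists 60.4% (ninth decile) and 56.4% (brightest) of protein-coding genes fell, beside 50.0% and 59.1% of the members. Glucose-6-phosphatase G6pc, the last step of glucose release, fell by 1.31 ± 0.11 without overlap.
In phospholipid metabolism the choline kinase gene Chka was at 8.23 to 9.29 (median 8.70) in C57Bl6 and 6.88 to 7.61 (median 7.19) in alb-SREBP-1a∆P and fell by 1.55 ± 0.16. Etnppl, which degrades phosphoethanolamine, fell by 1.66 ± 0.25, with arrays at 9.44 to 11.19 (median 10.35) in C57Bl6 and 7.98 to 9.14 (median 8.81) in alb-SREBP-1a∆P. Neither gene overlapped between the groups.

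Genes of amino acid breakdown fell in most measured steps. Of 22 genes of branched-chain amino acid degradation 19 fell and none rose (15 fell after cyclic loess). Of 15 of tryptophan, tyrosine and phenylalanine breakdown 12 fell and none rose (9 fell after cyclic loess). Of 15 of the methionine cycle and transsulfuration 10 fell and none rose (8 fell after cyclic loess). In the brightest decile, where these lists have their median level, 56.4% of protein-coding genes fell. Of the members 86.4%, 80.0% and 66.7% fell, in that order. Mccc1, a subunit of methylcrotonyl-CoA carboxylase of the leucine pathway, stood at 8.21 to 8.54 (median 8.35) in C57Bl6 and 7.25 to 7.72 (median 7.46) in alb-SREBP-1a∆P and fell by 0.86 ± 0.09. The next leucine enzyme gene, Auh, fell by 0.93 ± 0.10. Both were separated from C57Bl6 in 8 of 8 arrays.
Cth, which makes cysteine from cystathionine, fell by 0.98 ± 0.10, and Tat, tyrosine aminotransferase, by 0.77 ± 0.10. In the urea cycle 8 of 11 genes fell and 1 rose (7 and 1 after cyclic loess). Its entry enzyme gene Cps1 was at 13.39 to 13.75 (median 13.50) in C57Bl6 and 12.96 to 13.23 (median 13.13) in alb-SREBP-1a∆P and fell by 0.44 ± 0.07, with no overlap.

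Mitochondrial genes fell unevenly. Of 33 genes of mitochondrial proteases, chaperones and import 25 fell and 1 rose (19 and 2 after cyclic loess), and of 21 tricarboxylic acid cycle genes 15 fell and none rose (10 and 3 after cyclic loess). Of 80 nuclear genes of oxidative phosphorylation 37 fell and 9 rose, and after cyclic loess 20 fell and 20 rose. For that list the excess of falls thus depends on the scaling.
Clpx, the unfoldase of a matrix protease, ranged from 9.64 to 10.13 (median 9.87) in C57Bl6 and from 7.77 to 8.51 (median 8.25) in alb-SREBP-1a∆P and fell by 1.62 ± 0.10 (limma, adjusted p = 5.51e-09). The matrix protease gene Lonp1 fell by 0.89 ± 0.08 and the chaperonin gene Hspd1 by 0.78 ± 0.08. Idh3a, the catalytic subunit of isocitrate dehydrogenase, was at 8.02 to 8.80 (median 8.47) in C57Bl6 and 7.35 to 7.62 (median 7.53) in alb-SREBP-1a∆P, a fall of 0.94 ± 0.09. The mitochondrial ribosomal gene Mrpl9 fell by 0.94 ± 0.09 and Atp5a1, of ATP synthase, by 0.62 ± 0.07. In all of these genes 8 of 8 arrays lay below every C57Bl6 array. The same held in 16 of the 33 genes of mitochondrial proteases, chaperones and import. It also held in 566 of 2445 protein-coding genes of the ninth decile, where that list has its median level.

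**Figure D4:**
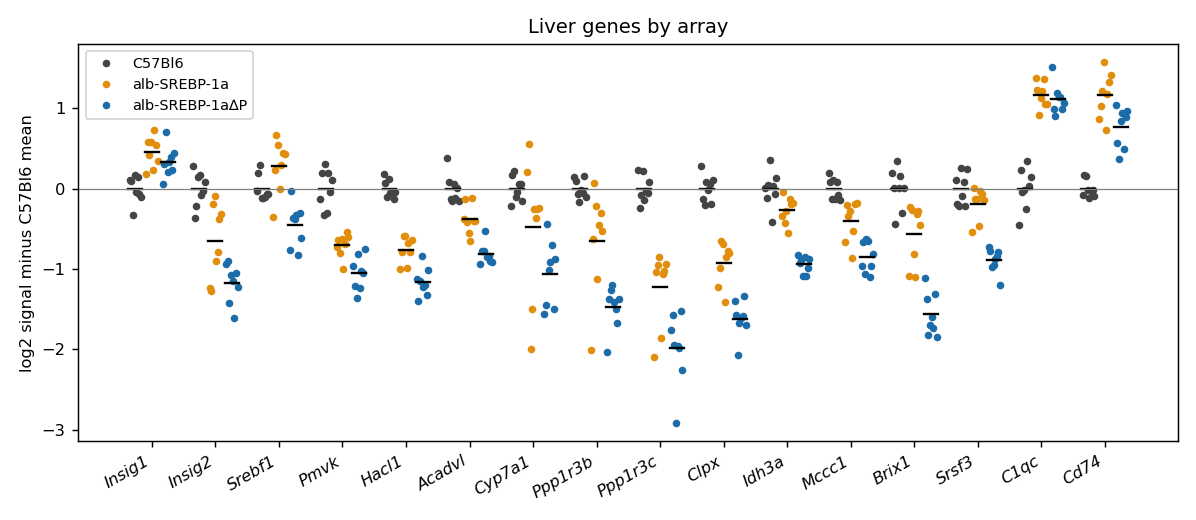
Log2 signal minus the C57Bl6 mean (y axis, log2 units) of 16 genes on 24 arrays by genotype, each point an array and each line a group mean. Insig1, C1qc and Cd74 lie above the C57Bl6 mean in alb-SREBP-1a∆P and the other 13 below it, with Ppp1r3c lowest at -1.99.

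Genes of the machinery that makes and processes RNA and protein fell in most members, and single members rose. Of 47 ribosome biogenesis factors 40 fell and none rose (30 fell and 2 rose after cyclic loess), of 60 spliceosome and SR protein genes 45 fell and 2 rose (32 and 6), and of 49 translation initiation factors 36 fell and 3 rose (21 and 3). Brix1, a factor of the large ribosomal subunit, stood at 7.54 to 8.31 (median 7.98) in C57Bl6 and 6.12 to 6.86 (median 6.33) in alb-SREBP-1a∆P and fell by 1.56 ± 0.13. The splicing factor gene Srsf3 was at 8.57 to 9.05 (median 8.78) in C57Bl6 and 7.58 to 8.06 (median 7.93) in alb-SREBP-1a∆P and fell by 0.89 ± 0.09. Hnrnpu, an abundant nuclear RNA-binding protein, fell by 0.65 ± 0.07, the initiation factor gene Eif2s2 by 1.06 ± 0.10 and the helicase gene Eif4a1 by 0.59 ± 0.06. None of these 5 genes overlapped with C57Bl6.
Single genes of this machinery rose as clearly. Eif4ebp2, a repressor of cap-dependent translation, ranged from 9.18 to 9.82 (median 9.46) in C57Bl6 and from 10.21 to 10.70 (median 10.39) in alb-SREBP-1a∆P and rose by 0.89 ± 0.10. Of 50 RNA polymerase II subunits and general factors 26 fell and 1 rose (21 and 6 after cyclic loess). The share that fell, 52.0%, stands beside 56.1% of protein-coding genes in the eighth decile, where the list has its median level. Polr2b, the second largest subunit, fell by 0.82 ± 0.09. The 1 gene that rose was Polr2l, of a small shared subunit, by 0.80 ± 0.10. Its arrays were at 9.38 to 10.03 (median 9.79) in C57Bl6 and 10.30 to 10.86 (median 10.54) in alb-SREBP-1a∆P. Of 39 Mediator subunits and coactivators 20 fell and 3 rose (51.3% fell, and 12 fell and 7 rose after cyclic loess). Med25 was among those that rose, by 0.60 ± 0.07. Eif4ebp2, Polr2l and Med25 lay above every C57Bl6 array in 8 of 8 arrays.
Cytosolic ribosomal proteins did not follow the biogenesis factors: 22 of 61 fell and 8 rose, and after cyclic loess 8 fell and 12 rose. Rpl36a fell by 0.67 ± 0.10, and Rps10 rose by 0.53 ± 0.09, with arrays at 11.21 to 11.72 (median 11.49) in C57Bl6 and 11.88 to 12.15 (median 12.02) in alb-SREBP-1a∆P, both without overlap. In protein turnover 31 of 50 proteasome genes fell and 2 rose (16 and 5 after cyclic loess). The share that fell, 62.0%, is near the 60.4% of protein-coding genes in the ninth decile, where the list has its median level. The assembly chaperone gene Psmd5 fell by 0.93 ± 0.09. Of 19 cytosolic heat shock and chaperonin genes 13 fell and none rose (9 fell after cyclic loess), and Cct8, of the chaperonin that folds actin and tubulin, fell by 0.78 ± 0.08.

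Small RNA genes held large changes in both directions at high signal. Of 51 small nucleolar RNAs, which guide the modification and processing of ribosomal RNA, 14 rose and 11 fell (15 and 9 after cyclic loess). Snord57 ranged from 11.37 to 12.32 (median 11.97) in C57Bl6 and from 13.14 to 13.36 (median 13.31) in alb-SREBP-1a∆P and rose by 1.36 ± 0.11. It is encoded in an intron of Nop56, a core protein gene of box C/D particles, and Nop56 fell by 1.13 ± 0.09, with arrays at 8.11 to 8.45 (median 8.32) in C57Bl6 and 6.84 to 7.45 (median 7.20) in alb-SREBP-1a∆P. So the intronic RNA and its host moved in opposite directions in 8 of 8 arrays, and on both scalings (after cyclic loess 1.48 and -0.88).
Snord104 fell by 1.20 ± 0.09, with arrays at 13.51 to 14.18 (median 14.00) in C57Bl6 and 12.66 to 12.90 (median 12.78) in alb-SREBP-1a∆P. Snora73a and Snora73b, copies of the U17 RNA that acts in processing of the small-subunit ribosomal RNA, fell by 1.65 ± 0.27 and 1.88 ± 0.29. Their C57Bl6 arrays were widely spread, from 9.05 to 11.37 (median 9.94) and from 9.29 to 11.73 (median 10.38), yet all 8 alb-SREBP-1a∆P arrays lay below them. Since these RNAs are near-identical copies, their probe sets may read each other, and this was not tested.

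Of 300 microRNA genes 159 rose and 4 fell (median 0.32), and after cyclic loess 68 rose and 23 fell. At their median level of 4.24, in decile 3, 46.8% of protein-coding genes rose. By RNA class, 59.3% of microRNA genes rose in the dimmest decile, fewer than the 72.7% of protein-coding genes. In decile 2 the shares were 37.3% and 62.1%. In each of deciles 3 to 7 microRNA genes had the higher share, with 52.8% beside 46.8% in decile 3 and 13 of 25 beside 8.77% in decile 7. Which transcript of a microRNA locus a probe set reads is unknown here. Mature RefSeq sequences of the 5 microRNA genes named for their rise are printed. Among the printed sequences no seed is shared except by the Mir680 copies. For Mir301b only the 5p arm is printed, so its other arm was not compared. The seed, bases 2 to 8, is in capitals. In build GRCm38.p6 miR-692 lies at chr17:6895259-6895279, miR-301b-5p at chr16:17124456-17124477, the arms of Mir665 at chr12:109586331-109586356 and chr12:109586368-109586387, and the copies of miR-680 at chr6:129691541-129691561 (Mir680-1) and chrX:144297790-144297810 (Mir680-2).
miR-692: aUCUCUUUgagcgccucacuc
miR-301b-5p: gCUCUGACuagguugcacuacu
miR-665-5p: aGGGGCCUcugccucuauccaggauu
miR-665-3p: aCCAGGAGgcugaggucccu
miR-680: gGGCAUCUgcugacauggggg
Mir692-1, in the brightest decile, ranged from 8.87 to 9.58 (median 9.02) in C57Bl6 and from 10.28 to 11.04 (median 10.80) in alb-SREBP-1a∆P and rose by 1.63 ± 0.12 (limma, adjusted p = 2.82e-08). Mir301b rose by 1.78 ± 0.14, with arrays at 4.11 to 4.68 (median 4.27) in C57Bl6 and 5.41 to 6.46 (median 6.04) in alb-SREBP-1a∆P, and Mir665 by 1.53 ± 0.14, with arrays at 4.41 to 5.39 (median 4.73) in C57Bl6 and 5.87 to 6.88 (median 6.28) in alb-SREBP-1a∆P. None of the 3 overlapped with C57Bl6.
The Mir680 copies behaved alike and set 1 mouse apart. Mir680-1 stood at 4.44 to 5.61 (median 4.96) in C57Bl6 and 6.004 to 8.31 (median 7.85) in alb-SREBP-1a∆P, and rose by 2.66 ± 0.27. Mir680-2 was at 6.16 to 7.10 (median 6.44) and 6.22 to 9.54 (median 9.13), and rose by 2.22 ± 0.35. In both, the lowest alb-SREBP-1a∆P array was replicate 4, at 6.004 and 6.219, while the other 7 arrays lay at or above 7.438 and 8.701. Without that replicate the changes were 2.901 and 2.58.

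Srsy, which has many copies on the Y chromosome and is known from testis, had the largest change on the deposited values among the 19938 genes with a probe set of 1 symbol, and the same array stood apart. After cyclic loess and quantile normalization it came after Nr1d1, at 3.58 and 3.49 beside 3.75 and 3.61. Its brightest probe set was at 4.18 to 4.77 (median 4.45) in C57Bl6 and 5.76 to 8.62 (median 8.37) in alb-SREBP-1a∆P and rose by 3.56 ± 0.31, and the groups did not overlap. Replicate 4 was at 5.76 and the other 7 arrays at or above 7.63, and without replicate 4 the change was 3.87. The 19 Srsy probe sets, all of which rose (3.24 to 4.199), read near-identical copies and are not independent.
Single-copy genes of the Y chromosome, some of which are expressed in most male tissues, changed less and in both directions. Eif2s3y, a translation factor gene, fell by 0.69 ± 0.14, the histone demethylase genes Uty and Kdm5d by 0.57 ± 0.13 and 0.49 ± 0.11, and of 8 such genes 3 rose and 3 fell (changes from -0.69 to 0.56), and after cyclic loess 1 rose and 3 fell. Sry, the testis-determining gene, rose by 0.51 ± 0.12, with 5 of 8 arrays above every C57Bl6 array. Moxd1, a copper monooxygenase gene of an autosome, also had replicate 4 lowest, at 7.68 with the next array at 9.29. It ranged widely in C57Bl6, from 6.06 to 9.59 (median 7.51), lay at 7.68 to 10.37 (median 10.05) in alb-SREBP-1a∆P, and rose by 2.10 ± 0.52.

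**Figure D5:**
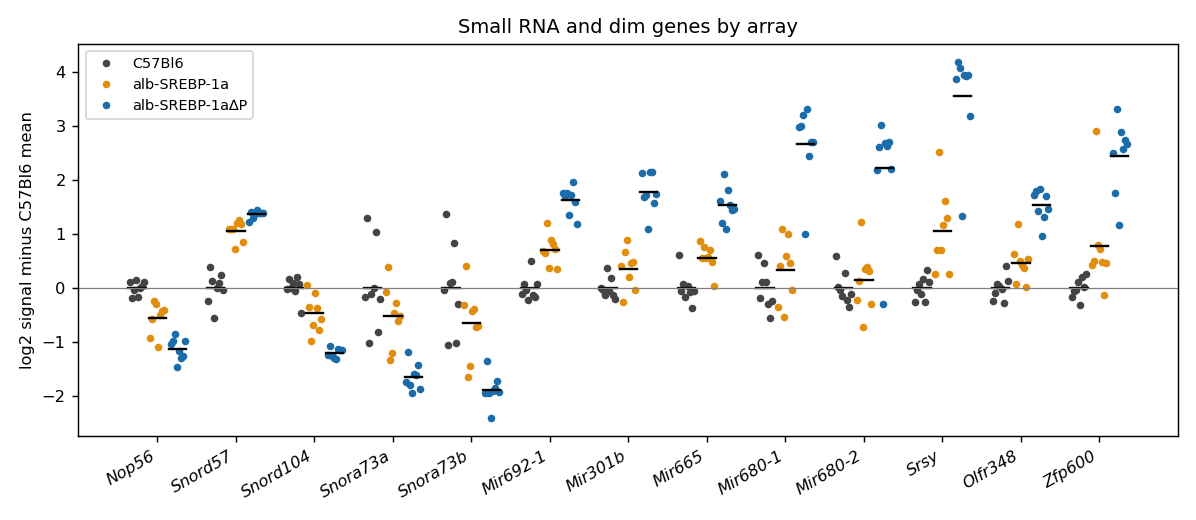
Log2 signal minus the C57Bl6 mean (y axis, log2 units) of 13 genes on 24 arrays by genotype, each point an array and each line a group mean. Snord57 lies above and its host Nop56 below the C57Bl6 mean in alb-SREBP-1a∆P, and a single alb-SREBP-1a∆P array lies low in Mir680-1, Mir680-2 and Srsy.

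Markers of immune cells rose in part. Of 18 Kupffer cell and macrophage markers 10 rose and none fell, and 12 rose after cyclic loess. The log2 of their summed signal was 11.60 to 12.12 (median 12.01) in C57Bl6 and 11.97 to 12.72 (median 12.27) in alb-SREBP-1a∆P, which overlap. C1qc, a chain of complement C1q made by macrophages, ranged from 7.04 to 7.83 (median 7.496) in C57Bl6 and from 8.40 to 9.003 (median 8.59) in alb-SREBP-1a∆P and rose by 1.12 ± 0.11. C1qb rose by 0.73 ± 0.12 and the lysosomal membrane protein gene Laptm5 by 0.67 ± 0.09, each with 8 of 8 arrays above every C57Bl6 array. Cd74, the invariant chain of MHC class II, rose by 0.76 ± 0.10, and of 8 genes of that list 4 rose and none fell (5 rose after cyclic loess).
Of 10 neutrophil markers 6 rose and none fell, with a summed signal of 8.20 to 8.47 against 8.48 to 8.76. These markers are dim, and after cyclic loess 1 rose. S100a9, a calcium-binding protein of neutrophils, rose by 0.49 ± 0.14 and did not pass with arrays centred on their medians (0.33). Of 11 T and NK cell markers 4 rose and none fell (8.52 to 8.74 against 8.76 to 8.93), and of 7 B cell markers 2 rose (7.81 to 8.02 against 7.86 to 8.19). After cyclic loess 3 of the former and none of the latter rose. These lists have their median level in deciles 4 and 5, where 38.4% and 28.5% of protein-coding genes rose. Of the T and NK cell markers 36.4% and of the B cell markers 28.6% rose, so by this share neither list stands out from its level. Of 12 endothelial markers 2 rose and 3 fell (11.33 to 11.71 against 11.22 to 11.54), of 12 stellate cell and fibrosis genes 1 fell (11.66 to 11.94 against 11.46 to 11.77), and of 6 cholangiocyte markers none passed the test (8.12 to 8.64 against 8.22 to 8.40). Of 4 erythroid genes 2 rose (9.61 to 10.05 against 9.51 to 9.86). After cyclic loess the endothelial balance turned, with 5 that rose and 1 that fell, while of the stellate list 2 rose and 1 fell, 1 cholangiocyte marker fell and no erythroid gene passed. The part of these cells in the falls of hepatocyte genes was not tested.
Some other secretory and regulatory lists fell at about the share of protein-coding genes of their level. Of 26 complement and coagulation genes 15 fell and none rose (57.7% fell, and 8 fell and 1 rose after cyclic loess). Of 22 genes of the unfolded protein response and chaperones of the endoplasmic reticulum 14 fell and 3 rose (63.6% fell), and after cyclic loess 6 fell and 6 rose. Of 22 PPAR and other nuclear receptor genes 13 fell and 2 rose (59.1% fell, and 6 fell and 1 rose after cyclic loess).
Among secreted acute-phase proteins 8 of 25 rose and 5 fell (10 and 3 after cyclic loess). Lcn2, which binds bacterial iron carriers, was at 6.02 to 8.31 (median 6.50) in C57Bl6 and 8.29 to 9.15 (median 8.58) in alb-SREBP-1a∆P, with 6 of 8 arrays above every C57Bl6 array, and rose by 1.70 ± 0.31. Hamp, which encodes the iron hormone hepcidin, rose by 0.44 ± 0.11. The metal-binding metallothioneins varied widely between mice. Mt2 ranged from 7.21 to 9.16 (median 9.02) in C57Bl6 and from 9.09 to 12.80 (median 11.06) in alb-SREBP-1a∆P and rose by 2.30 ± 0.53, and Mt1 rose by 1.72 ± 0.36, each with 7 of 8 arrays above.

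Other large changes were found in regulators and in single genes. Rnasek, an endoribonuclease gene of the brightest decile, ranged from 8.62 to 9.03 (median 8.92) in C57Bl6 and from 9.97 to 10.20 (median 10.09) in alb-SREBP-1a∆P and rose by 1.22 ± 0.08. Dusp6, a phosphatase that switches off ERK, fell by 0.99 ± 0.12, with arrays at 7.84 to 8.36 (median 8.03) in C57Bl6 and 6.58 to 7.51 (median 7.05) in alb-SREBP-1a∆P, and among 24 MAPK pathway genes 10 fell and 1 rose (7 and 4 after cyclic loess). Neither Rnasek nor Dusp6 overlapped between the groups. In the circadian clock, where 8 of 18 genes rose and 5 fell (10 and 5 after cyclic loess), the repressor gene Nr1d1 was at 6.84 to 7.52 (median 7.07) in C57Bl6 and 10.47 to 10.82 (median 10.70) in alb-SREBP-1a∆P, and Arntl, an activator that it represses, at 7.55 to 8.21 (median 7.63) and 5.79 to 6.52 (median 6.01). Neither gene overlapped between the groups, and both kept their direction after cyclic loess (3.75 and -1.49). On the alb-SREBP-1a arrays, which come from mice with the intact transgene, Nr1d1 ranged from 9.96 to 10.72 (median 10.37) and Arntl from 6.18 to 7.32 (median 6.81).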

How the data were processed

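Total RNA of whole liver, 150 ng per array, was hybridised to Affymetrix Mouse Gene 1.0 ST arrays, 8 per genotype. The authors made the deposited log2 values with the RMA algorithm in Affymetrix Expression Console, which sets probe intensities of all arrays to a common distribution before summarising them. Afterwards the deposited arrays still differed by up to 0.678 at the same rank, with array medians from 5.54 to 5.81 over all 24 arrays. Scanner files were not used here, so background and saturation were not examined, and the number of arrays limits the precision. The values run from 0.833 to 15.0.

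Groups were taken from the sample titles. Probe sets were named by the platform annotation, in which 21789 have 1 symbol, 1621 several and 12146 none, and none was named from several symbols. Of 999 genes with several probe sets, 36 had probe sets that passed in opposite directions. Changes were tested with limma 3.58.1 in R 4.3.3 (lmFit and eBayes, Benjamini-Hochberg over 35556 probe sets, threshold 0.05), after a test on simulated data. Each limma p-value sets the difference of group means against the spread between mice of the same group. Array measures were tested by exact permutation, and figures were drawn with Python 3.11.15 and matplotlib 3.10.9. Cyclic loess and quantile normalization were run on the 16 arrays. Alternatives were 3 scalings, a fit of all 24 arrays, a block for the replicate number, a filter on dim probe sets, an intensity trend, array weights, 1 probe set per gene, the methods' unpaired test, other reference levels and leaving out alb-SREBP-1a∆P replicate 4.

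The gene lists, and the choice to describe this comparison, were made with earlier results of these data known. The arrays in it were taken by the genotype in the sample titles. Genes were named from these sets: those the paper names for this comparison, up to 4 per list with the smallest p, every gene of lists of 9 or fewer, the 15 of largest change in each direction above the median level without overlap, the 5 of smallest p in each direction in the dimmest and brightest deciles, and the 10 of largest change in each direction after cyclic loess. Of the 89 genes described, 88 fall under this rule, and Hmgcs1 was added for its promoter. Promoter and microRNA sequences are from RefSeq, build GRCm38.p6.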

Additional observations from a re-analysis of the deposited data

Results flagged for a closer look

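Among 186 groups of 8 arrays, 1 per gene and genotype over the genes described and the array measures, 17 had an array whose gap to its nearest neighbour was large for the range of the group (Dixon's ratio at the 95% level). Chance puts about 1 group in 20 apart, and no explanation was tested. The alb-SREBP-1a∆P replicate 4 accounted for 6 of the 17. It was lowest in its group in Mir680-1 (6.004, next 7.44), Mir680-2 (6.22, next 8.70), Srsy (5.76, next 7.63) and Moxd1 (7.68, next 9.29), where it lay nearest to C57Bl6. It was highest in Acadvl (8.94, next 8.70) and Psmd5 (7.92, next 7.53), genes that fell, so there too it lay nearest to C57Bl6.

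The other alb-SREBP-1a∆P arrays apart were replicate 6 in Nsdhl (10.65, next 10.53), replicate 3 in Krtap5-3 (9.25, next 8.26), replicate 2 in C1qb (8.67, next 9.11) and replicate 1 in Laptm5 (8.42, next 8.09). In C57Bl6 replicate 1 stood above the other 7 arrays in Acadvl (9.86, next 9.55), Etfb (12.28, next 12.14), Auh (8.29, next 7.97) and Mir665 (5.39, next 4.85). Replicate 8 was lowest in Snord104 (13.51, next 13.92), replicate 5 highest in Mir692-1 (9.58, next 9.17) and replicate 4 highest in Kdm5d (7.24, next 6.90). All of these genes passed the test without alb-SREBP-1a∆P replicate 4.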

How the results depend on the processing

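Beside 9584 probe sets that rose and 7193 that fell, quantile normalization gave 4609 and 6702, cyclic loess 5763 and 5594, centring on array medians 4780 and 10194, probe sets above the median level alone 3042 and 6881, and the brightest probe set per gene 5519 and 5376. The last pair tested fewer features. The share of calls that were rises was 57.1% as deposited, 40.7% after quantile normalization, 50.7% after cyclic loess and 31.9% after centring. The median change of all probe sets was 0.11, and -0.03, 0.00 and -0.05 under these scalings. The methods' unpaired test gave 9210 and 7194 after Benjamini-Hochberg adjustment, and 3557 and 2368 at its own threshold of an unadjusted p under 0.05 and a 1.5-fold change. With the replicate number as a block 9230 rose and 6977 fell. Same-numbered arrays did not deviate together (correlations from -0.07 to 0.13, own number the best match in 2 of 8), so the block pairs mice that share only a number. Without alb-SREBP-1a∆P replicate 4, 9640 rose and 7299 fell.

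The slope and the means of the dimmest and brightest deciles were recomputed without that replicate, with the block, with 1-symbol probe sets alone and against other reference levels, and kept their direction and passed the exact test in each. They were not recomputed after rescaling, and cyclic loess took the median change of these deciles to 0.02 and 0.00. Their size depended on the reference: against the C57Bl6 mean, which shares noise with one group, the dimmest decile differed by 0.604 and the brightest by -0.217, and with 1-symbol probe sets alone the brightest by -0.229. Of 89 genes 83 kept their side of the threshold in every setting. The exceptions were Srebf2, which passed after cyclic loess with the sign turned (0.24, adjusted p = 0.0457), Srebf1 and Scap, which changed side after cyclic loess and quantile normalization, and Insig1, Nsdhl and S100a9, which did not pass after centring. Of 146 counts for lists, 76 moved by over 1.5 times with cyclic loess, 59 with quantile normalization and 11 without that replicate. The cause was not tested.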
